A study of Mus musculus with 48 samples.

Results

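IL-15 and its relatives of the common gamma family were followed through 7 genes: the ligands Il15 and Il7, and the receptor chains Il15ra, Il2rb, Il7r, Il21r and Il4ra. They were taken from the 18194 genes named by probe sets with a single annotated symbol, and each was read from its probe set with the highest mean signal. All 7 were among the 13648 genes tested, that is, genes above the table's median of 6.70 on the log2 scale in at least 3 arrays. Il2rb was above that median only on the PBS arrays of week 13 (7.003 to 7.63). It therefore entered the tested genes only through the groups in which it was high.

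The study asked, as its title says, whether inhibitors of the IL-15 pathway prevent alopecia areata in mice, an autoimmune hair loss. Affymetrix arrays measured RNA from whole skin of C3H/HeJ mice, an inbred strain in which the disease is known to be induced by grafting skin from affected animals. The labels used here give no age, sex, dose or graft status, and they give the time of treatment as 5/6 weeks for titles of weeks 5 and 6. There were 3 treated groups. The title name il15rb stands, from what is known of the study, for an antibody to the receptor beta chain encoded by Il2rb. The names jak3i and jak12i stand for tofacitinib and ruxolitinib, small molecules that inhibit Janus kinases (JAK), the second acting mainly on JAK1 and JAK2. Each was set against phosphate-buffered saline (PBS) given by the route known of the study for that agent: il15rb against PBS ip (intraperitoneal), jak3i against PBS pump, and jak12i against PBS gavage. Week 5 held 3 il15rb, 4 PBS ip and 4 sham arrays. Week 6 held 5 jak3i, 3 PBS pump, 5 jak12i and 5 PBS gavage arrays. At week 13 each of the 6 groups had 3 arrays. Of 48 arrays, 1 titled as PBS ip but labelled with the antibody treatment was put in no group.

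Cytokines of this family signal through receptors that share the common gamma chain, which is bound to JAK3, while their private chains are bound to JAK1. IL-15 is shown to T cells and natural killer (NK) cells by the chain encoded by Il15ra on a neighbouring cell, and the responding cell receives it through the beta chain and the common gamma chain. In skin, IL-15 and IL-7 are made by epithelial and stromal cells and maintain resident T cells. The common gamma chain gene Il2rg was not analysed here.

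Probe signal was log2 throughout, so a difference of 1 is a doubling, and levels of different genes are not compared. The arrays' 75th percentile ran from 8.47 to 8.68 at week 5, from 8.15 to 8.35 at week 6 and from 8.68 to 8.78 at week 13, and levels are therefore compared within a week. Arrays of 1 group correlated at 0.973 to 0.996. Keratinocyte and fibroblast genes were high on all arrays: Krt10 lay between 14.06 and 14.37, and Dcn between 12.64 and 13.88. Whole skin holds many cell types, and fewer cells of a type and less RNA per cell cannot be told apart. The series describes its samples as biological replicates, and precision is limited by how few arrays each group has.

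Promoter sequence is shown for 3 of the receptor genes that were lower at week 13. Il15ra, lower under jak3i, was searched as well but is not printed. The ligands of these receptors signal through STAT factors that bind short palindromic elements. Whether such factors act on the receptor genes was not tested. Each line gives the bases before the outermost annotated start, read 5′ to 3′ on the gene's strand, from RefSeq on GRCm38.p6, and capitals mark the single match found in these genes. The interval of Il4ra is chr7:125552021-125552270 on the plus strand, that of Il21r is chr7:125603179-125603251 on the plus strand, and that of Il7r is chr15:9529942-9530126 on the minus strand.
Il4ra: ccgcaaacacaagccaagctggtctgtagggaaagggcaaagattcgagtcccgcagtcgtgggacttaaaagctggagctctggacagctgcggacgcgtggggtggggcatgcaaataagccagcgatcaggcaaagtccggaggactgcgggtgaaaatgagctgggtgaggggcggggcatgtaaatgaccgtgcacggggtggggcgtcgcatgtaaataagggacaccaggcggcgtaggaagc
Il21r: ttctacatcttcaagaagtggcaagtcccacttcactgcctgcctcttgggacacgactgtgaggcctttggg
Il7r: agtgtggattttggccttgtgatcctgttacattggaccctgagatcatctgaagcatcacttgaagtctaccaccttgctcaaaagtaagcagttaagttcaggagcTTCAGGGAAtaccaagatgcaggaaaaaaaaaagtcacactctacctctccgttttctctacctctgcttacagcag

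Sequence was found for 4 of the 7 genes, Il15ra, Il21r, Il4ra and Il7r. The 250 bases before each listed start were searched on both strands for the gamma-activated element TTCNNNGAA, its STAT6 form TTCNNNNGAA, and the interferon regulatory factor element GAAANNGAAA. These letters occur in 7.02%, 5.85% and 2.98% of the 32851 promoters in the same table, and the motifs can overlap. The match in Il7r, TTCAGGGAA, is of the first kind and lies 142 to 134 bases before the listed start. That listed start is downstream of the outermost annotated start, where the printed Il7r line ends. Of the 250 bases searched for Il7r 185 are printed, so the match is nearer to the end of the printed line. For Il21r 73 of the 250 bases searched are printed. A match of letters is a description and not a binding site. Il4ra and Il21r are neighbours on chromosome 7, with 0 annotated genes between them.

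At week 13 Il2rb and Il21r fell under all 3 agents, Il4ra fell under both JAK inhibitors, and Il15ra and Il7r fell under jak3i. The calls of Il7r under jak3i, Il21r under il15rb and Il4ra under jak12i were lost when certain single arrays were left out. Il2rb and Il15ra each had a second probe set that was not called. Neither ligand was called under any agent in the main fit with the probe set used for it. Counting genes with an adjusted p under 0.05 in limma as called, 2 of the 7 genes were called in il15rb against PBS ip, 5 in jak3i against PBS pump and 3 in jak12i against PBS gavage, and all of these were lower. Over all tested genes, the share called lower was 10.6% for il15rb, 6.32% for jak3i and 10.3% for jak12i, and the share called in either direction was 25.7%, 16% and 21.9% for the same 3 comparisons. Arrays of the treated group lay wholly below those of its PBS group for 4 genes under il15rb, 5 under jak3i and 4 under jak12i, where 16.1%, 11.9% and 17.7% of all tested genes did so. The median log2 difference of the 7 genes was -0.44 under il15rb, -0.61 under jak3i and -0.68 under jak12i, beside 0.01, 0.03 and 0.02 over all genes tested. The 7 genes were chosen with earlier results of these data known, so these counts and medians are descriptions and not a test. They include Il2rb, which entered the tested genes only through the PBS arrays of week 13.

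**Figure D1:**
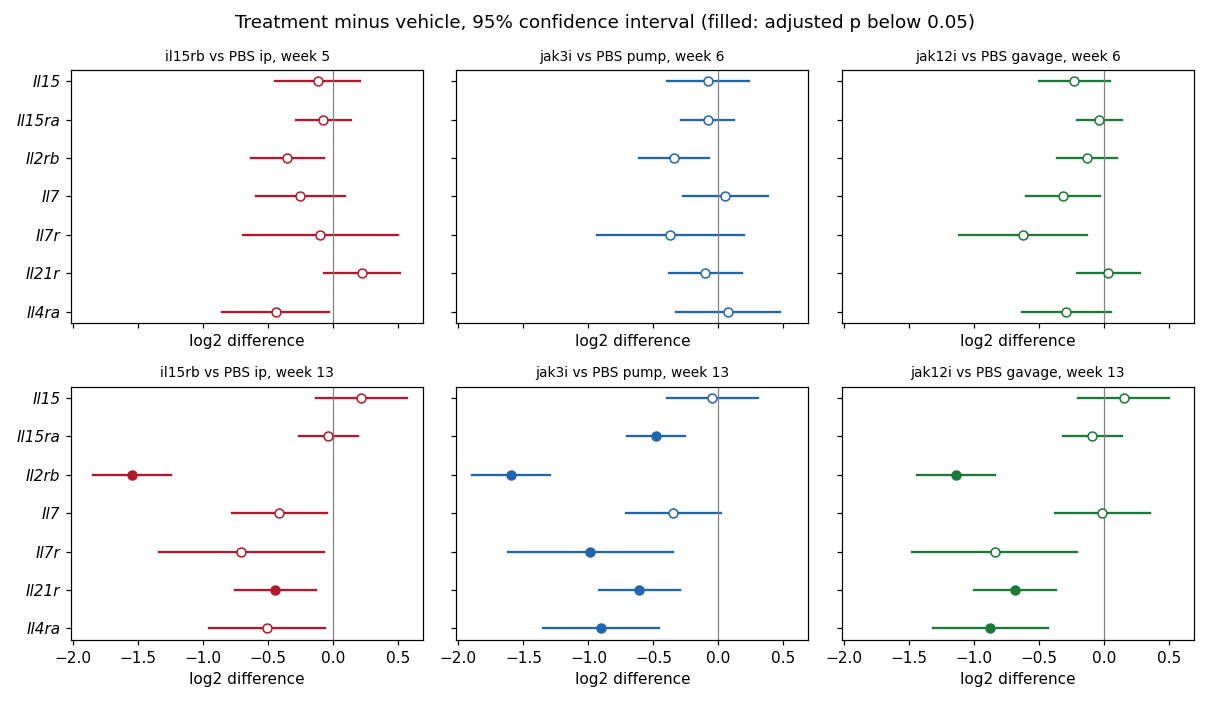
Log2 difference from the PBS group of the same route and week for each of the 7 genes, with bars of the 95% confidence interval and filled points for an adjusted p under 0.05; weeks 5 and 6 are above and week 13 below. At week 13 Il2rb lies lowest of the 7 under every agent, at -1.55, -1.59 and -1.14, while Il15 lies between -0.05 and 0.22.

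Of the ligands, Il15, which encodes the cytokine whose receptor signalling the agents act on, had 8.17, 8.28 and 8.52 in il15rb arrays and 7.87, 8.47 and 7.97 in PBS ip arrays at week 13. It had 8.05, 8.22 and 8.10 in jak3i arrays against 8.03, 8.32 and 8.16 in PBS pump arrays, and 8.21, 8.14 and 8.32 in jak12i arrays against 7.88, 8.10 and 8.23 in PBS gavage arrays. The arrays of treated and PBS skin overlapped in each pair. The differences were 0.22 ± 0.17 for il15rb (SE, adjusted p = 0.373), -0.05 ± 0.17 for jak3i (adjusted p = 0.894) and 0.15 ± 0.17 for jak12i (adjusted p = 0.573). Their 95% intervals reached from -0.13 to 0.57, from -0.40 to 0.30 and from -0.20 to 0.50, so changes within these bounds are not excluded. With array weights the il15rb difference was 0.36 (adjusted p = 0.0442).

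Il7, the stromal and epithelial ligand of the receptor chain encoded by Il7r, had 7.92, 7.61 and 8.24 in il15rb arrays at week 13 against 8.34, 8.31 and 8.36 in PBS ip arrays. The il15rb arrays lay below all 3 PBS ip arrays, which were close together, but the difference of -0.41 ± 0.18 did not pass (adjusted p = 0.0867). Under jak3i the values were 7.96, 7.69 and 7.87 against 8.28, 8.63 and 7.66 in PBS pump arrays, and 1 low PBS pump array made the groups overlap (-0.35 ± 0.18, adjusted p = 0.192). Single arrays moved both values. Without the low PBS pump replicate 3 the jak3i difference was -0.61 (adjusted p = 0.0203), and without the high PBS pump replicate 2 it was -0.13 (adjusted p = 0.71). The il15rb difference was -0.57 without il15rb replicate 3 (adjusted p = 0.0404) and -0.26 without il15rb replicate 2 (adjusted p = 0.364). Under jak12i the difference was -0.01 ± 0.18 (adjusted p = 0.972). The second Il7 probe set was dim, with a mean of 4.71 over all arrays. It gave -0.42 for il15rb, -0.26 for jak3i and -0.14 for jak12i (adjusted p = 0.0247, 0.235 and 0.573 over all probe sets). With array weights Il7 was called lower under il15rb (-0.40, adjusted p = 0.0176) and jak3i (-0.43, adjusted p = 0.0239).

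Il2rb, the beta chain shared by the receptors for IL-15 and IL-2 and the chain that the antibody is known to bind, fell under all 3 agents at week 13. It had 5.96, 5.88 and 5.73 in il15rb arrays against 7.41, 7.17 and 7.63 in PBS ip arrays. It had 5.61, 5.89 and 5.81 in jak3i arrays against 7.55, 7.50 and 7.04 in PBS pump arrays. It had 5.84, 6.23 and 6.23 in jak12i arrays against 7.25, 7.003 and 7.45 in PBS gavage arrays. Every treated array lay below every PBS array of the week, with a gap between the groups in each pair. The difference was -1.55 ± 0.15 for il15rb (2.92-fold, adjusted p = 4.06e-09), -1.59 ± 0.15 for jak3i (3.02-fold, adjusted p = 7.76e-10) and -1.14 ± 0.15 for jak12i (2.20-fold, adjusted p = 1.24e-06). Il2rb passed the filter on low signal only through the PBS arrays of these comparisons. Its calls are therefore descriptions and not independent support. The second Il2rb probe set was dimmer, with a mean of 5.42 over all arrays, and its differences of -0.34, -0.36 and -0.34 did not pass (adjusted p = 0.0707, 0.0723 and 0.0762 over all probe sets, for il15rb, jak3i and jak12i).

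**Figure D2:**
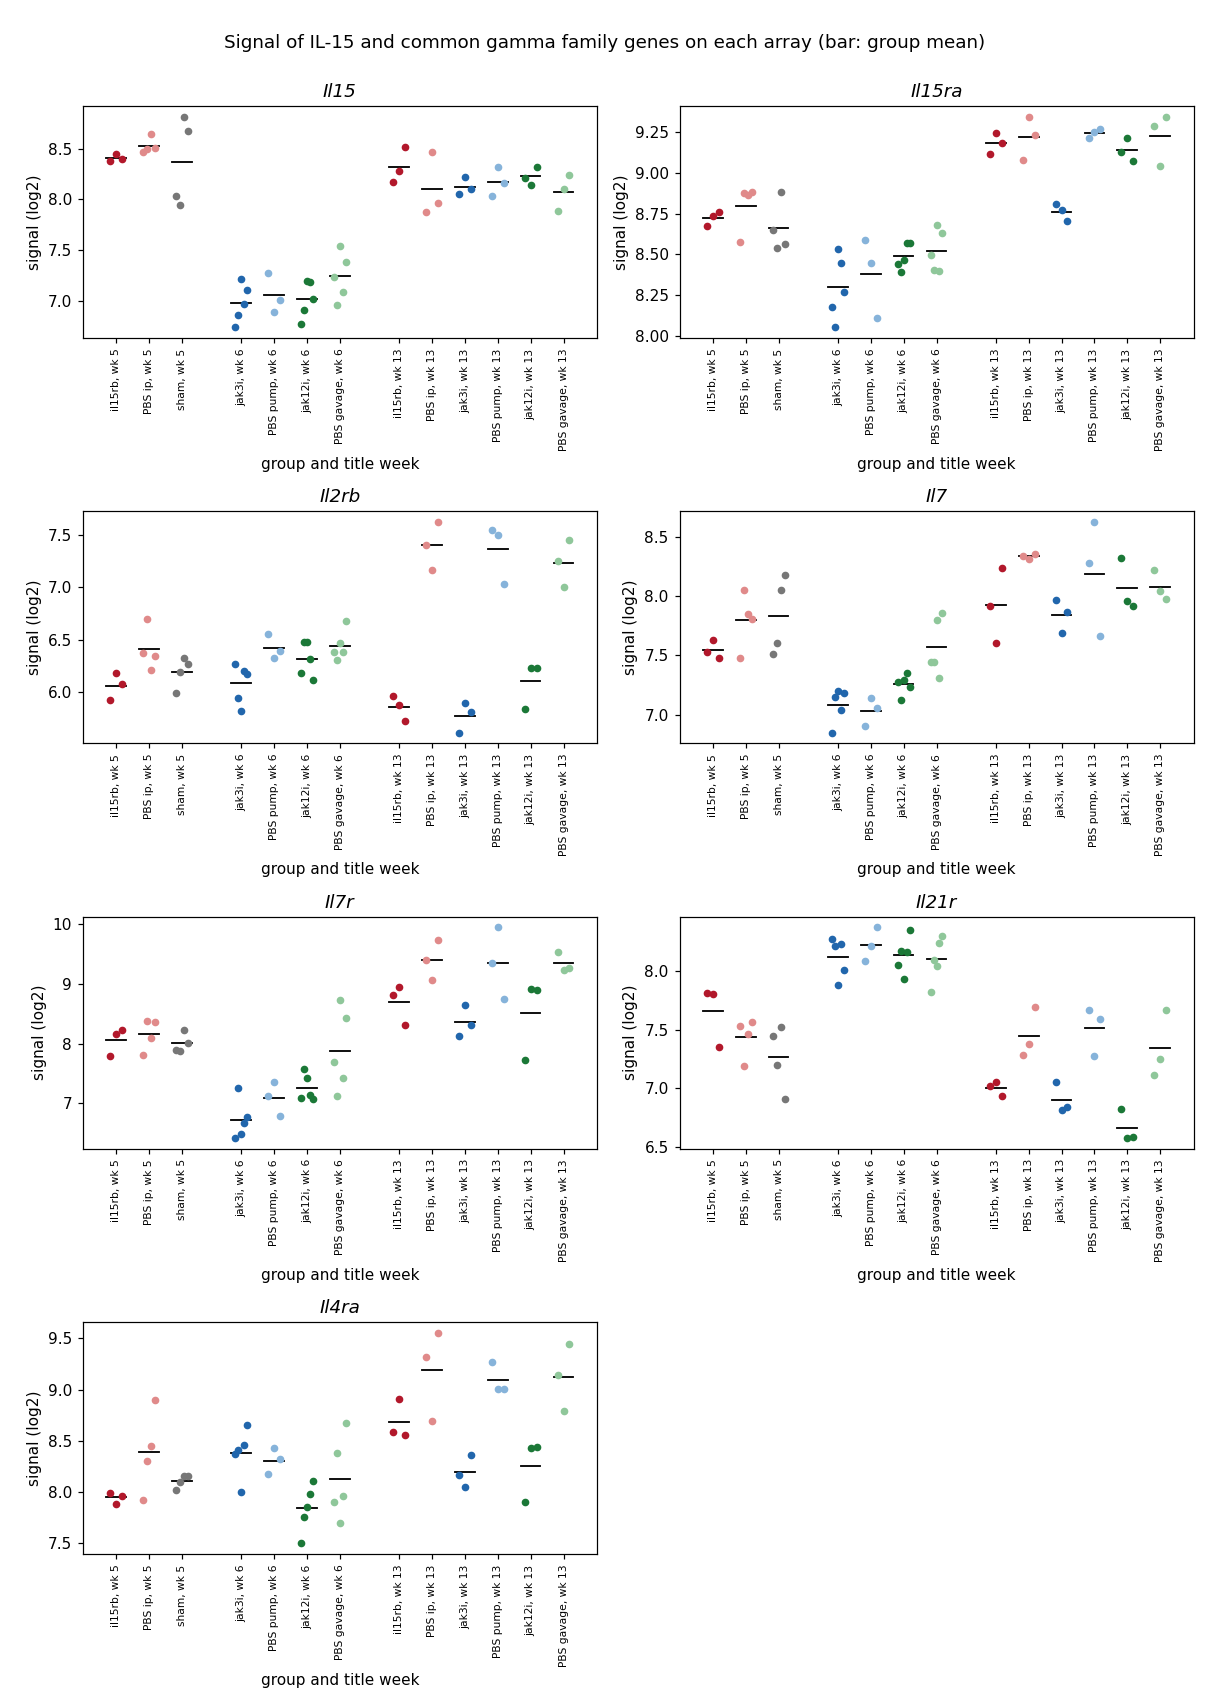
Log2 signal of the 7 genes, a point per array and a bar at each group's mean, with each treated group left of its PBS group. At week 13 the Il2rb arrays of treated skin lie between 5.61 and 6.23 and those of PBS skin between 7.003 and 7.63.

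Il15ra, the chain that binds IL-15 and presents it to neighbouring cells, was called under jak3i. Its values were 8.81, 8.77 and 8.70 in jak3i arrays against 9.21, 9.25 and 9.27 in PBS pump arrays, and the groups did not overlap. The difference was -0.48 ± 0.11 (1.40-fold, adjusted p = 0.00252), and leaving out each array in turn kept it between -0.51 and -0.45. Under il15rb the arrays had 9.12, 9.24 and 9.18 against 9.08, 9.34 and 9.23 under PBS ip, a difference of -0.04 ± 0.11 (adjusted p = 0.836). Under jak12i they had 9.12, 9.21 and 9.07 against 9.29, 9.04 and 9.34 under PBS gavage, a difference of -0.09 ± 0.11 (adjusted p = 0.621). The difference between the jak3i and il15rb effects was -0.44 ± 0.16 and did not pass (adjusted p = 0.426), nor did the -0.39 ± 0.16 between jak3i and jak12i (adjusted p = 0.648), so Il15ra cannot be called particular to jak3i. The second Il15ra probe set gave -0.27 for jak3i (adjusted p = 0.35 over all probe sets).

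Il7r, the alpha chain through which T cells and innate lymphoid cells receive IL-7 and, with a partner, TSLP, had 8.13, 8.65 and 8.32 in jak3i arrays at week 13 against 9.35, 9.95 and 8.74 in PBS pump arrays. The groups did not overlap, though the lowest PBS pump array came close to the highest jak3i array. The difference was -0.98 ± 0.31 (adjusted p = 0.0276). That call rested on single arrays: the adjusted p was 0.11 without jak3i replicate 1, 0.08 without jak3i replicate 3, 0.0635 without PBS pump replicate 1 and 0.183 without PBS pump replicate 2, where the difference was -0.68. It was 0.0716 when fitted on the week 13 arrays alone. Under il15rb Il7r had 8.82, 8.96 and 8.31 against 9.40, 9.07 and 9.74 under PBS ip, with no overlap and a difference that did not pass (-0.71 ± 0.31, adjusted p = 0.0934). Under jak12i it had 7.72, 8.91 and 8.89 against 9.54, 9.23 and 9.27 under PBS gavage, again with no overlap (-0.84 ± 0.31, adjusted p = 0.0503). The first jak12i array was far below the others, and without it, jak12i replicate 1, the difference was -0.45 with an adjusted p of 0.388. The adjusted p was 0.0306 without jak12i replicate 2 and 0.0403 without jak12i replicate 3. A second Il7r probe set gave -0.36 for il15rb, -0.91 for jak3i and -0.74 for jak12i (adjusted p = 0.386, 0.022 and 0.0562 over all probe sets).

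Il21r, the receptor for IL-21 on T, B and NK cells, was called under all 3 agents at week 13. Its values were 7.02, 7.06 and 6.94 in il15rb arrays against 7.29, 7.38 and 7.69 in PBS ip arrays. They were 7.05, 6.82 and 6.84 in jak3i arrays against 7.67, 7.28 and 7.59 in PBS pump arrays. They were 6.82, 6.58 and 6.59 in jak12i arrays against 7.11, 7.25 and 7.67 in PBS gavage arrays. No pair of groups overlapped. The difference was -0.44 ± 0.15 for il15rb (adjusted p = 0.0312), -0.61 ± 0.15 for jak3i (adjusted p = 0.00577) and -0.68 ± 0.15 for jak12i (adjusted p = 0.00162). The il15rb call was lost without il15rb replicate 1 (adjusted p = 0.064), il15rb replicate 3 (0.103) or PBS ip replicate 3 (0.205, difference -0.33), and when the PBS gavage group was the control (0.119). With that same control the jak3i call was lost as well (-0.44, adjusted p = 0.0604).

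Il4ra, the chain that binds IL-4 and also serves in the IL-13 receptor of keratinocytes and fibroblasts, was called under both JAK inhibitors. It had 8.16, 8.05 and 8.36 in jak3i arrays against 9.27, 9.01 and 9.01 in PBS pump arrays (-0.90 ± 0.22, adjusted p = 0.00384). It had 7.90, 8.43 and 8.43 in jak12i arrays against 9.14, 8.79 and 9.45 in PBS gavage arrays (-0.87 ± 0.22, adjusted p = 0.00385). Neither pair overlapped, and without PBS gavage replicate 3 the jak12i difference was -0.71 with an adjusted p of 0.0511. Under il15rb the values were 8.59, 8.90 and 8.55 against 9.32, 8.69 and 9.56 under PBS ip, where 1 PBS ip array lay below the highest il15rb array (-0.51 ± 0.22, adjusted p = 0.0834). Without that array, PBS ip replicate 2, the difference was -0.76 with an adjusted p of 0.011, and without PBS ip replicate 3, the highest, it was -0.32 with an adjusted p of 0.387.

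Of the other Il4ra probe sets, 1 gave -0.02 for il15rb, -0.59 for jak3i and -0.73 for jak12i (adjusted p = 0.959, 0.0352 and 0.00618 over all probe sets), while another gave -0.05, -0.20 and -0.06 (adjusted p of 0.416 or more). The Il4ra probe sets thus differed in which agents they called, and under the JAK inhibitors 2 of its 3 probe sets were called lower.

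**Figure D3:**
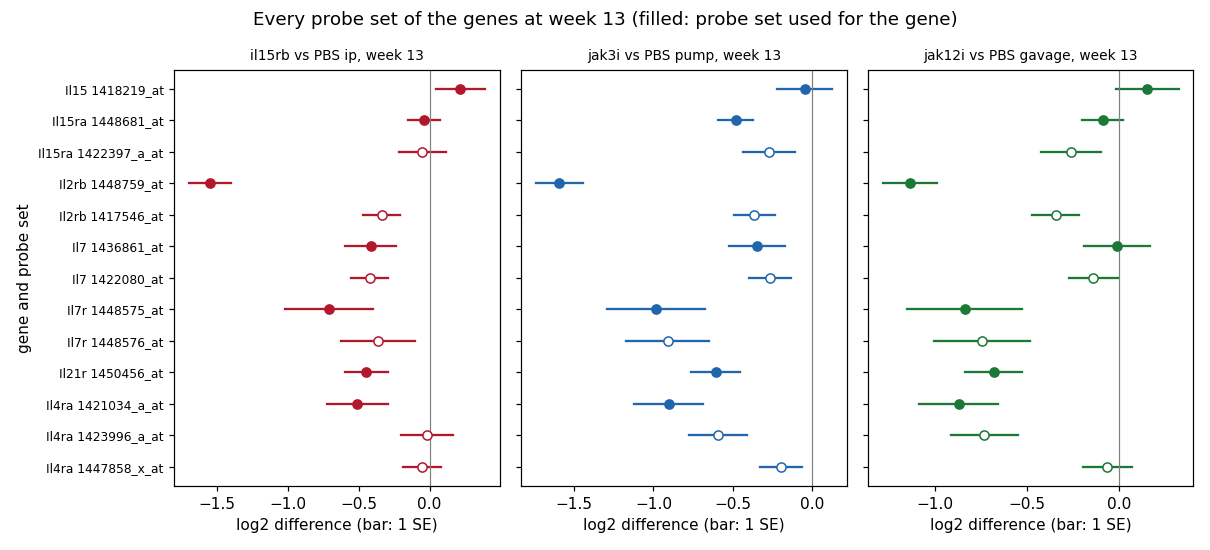
Week 13 log2 difference, with bars of 1 standard error, for each of the 13 probe sets of the 7 genes under il15rb, jak3i and jak12i, with filled points for the probe set used for each gene and open points for the others. The Il7r probe sets lie at -0.98 and -0.91 under jak3i, whereas those of Il2rb lie at -1.59 and -0.36.

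In the order of mean levels at week 13, the PBS groups took the top 3 places for Il2rb, Il7r, Il21r and Il4ra, and the treated groups the lowest 3, with no overlap between the third and the fourth place. For each of these genes the 3 PBS groups overlapped with their neighbours in that order. Only neighbouring places were compared there. Over all arrays of the week, PBS and treated arrays were separate for Il2rb and Il21r only. For Il7r a PBS pump array at 8.74 lay below the highest il15rb (8.96) and jak12i (8.91) arrays. For Il4ra a PBS ip array at 8.69 and a PBS gavage array at 8.79 lay below the highest il15rb array at 8.90. For Il2rb the treated groups followed as jak12i (6.10), il15rb (5.85) and jak3i (5.77), each overlapping the next. For Il21r they followed as il15rb (7.01), jak3i (6.90) and jak12i (6.66), and for Il4ra as il15rb (8.68), jak12i (8.25) and jak3i (8.19), where il15rb did not overlap jak12i.

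Differences between the agents' effects at week 13 were tested directly, each effect being measured against its own PBS group. None of the 7 genes was called in any of the 3 contrasts in limma, in each of which 0.00733% of all tested genes were called. At an unadjusted p under 0.05 there was 1 gene for jak3i minus il15rb, 0 for jak12i minus il15rb and 2 for jak3i minus jak12i. These counts have no share of all tested genes at the unadjusted threshold beside them, and nothing is drawn from them. The Il2rb effect of jak3i minus that of il15rb was -0.05, with a 95% interval from -0.47 to 0.37. The Il2rb effect of jak12i minus that of il15rb was 0.41, with an interval from -0.01 to 0.83. The Il2rb effect of jak3i minus that of jak12i was -0.46, with an interval from -0.88 to -0.04 (adjusted p = 0.718). These intervals leave room for agents to differ in their effect on Il2rb by over 0.3.

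At weeks 5 and 6 none of the 7 genes was called in limma. The share of all tested genes called was 0.0733% for il15rb against PBS ip, 0.0293% for PBS ip against sham, 4.1% for jak3i against PBS pump and 9.59% for jak12i against PBS gavage. At an unadjusted p under 0.05 the counts among the 7 were 2, 0, 1 and 2 in the same order. The share of all tested genes at that unadjusted threshold was not taken, so nothing is drawn from these counts. Il2rb had 5.92, 6.18 and 6.07 in il15rb arrays at week 5, against 6.37, 6.70, 6.21 and 6.35 in PBS ip arrays. The groups did not overlap, by a narrow gap (-0.35 ± 0.14, adjusted p = 0.929). Il2rb in jak3i arrays at week 6 was 6.27, 5.95, 5.82, 6.20 and 6.17, against 6.55, 6.33 and 6.39 in PBS pump arrays, also with no overlap (-0.34 ± 0.13, adjusted p = 0.153). Groups without overlap were found for 2 of the 7 genes in il15rb against PBS ip, Il2rb and Il15, and for 1 in jak3i against PBS pump, where 4.3% and 6.67% of all tested genes lay wholly lower.

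Other early differences of at least 0.3 in size were those of Il7r in jak12i against PBS gavage (-0.62 ± 0.24, adjusted p = 0.0993), Il4ra in il15rb against PBS ip (-0.44 ± 0.20, adjusted p = 1), Il7r in jak3i against PBS pump (-0.37 ± 0.28, adjusted p = 0.58) and Il7 in jak12i against PBS gavage (-0.32 ± 0.14, adjusted p = 0.146). For Il7r, jak12i arrays had 7.09, 7.57, 7.43, 7.14 and 7.08, against 7.69, 7.12, 8.74, 7.42 and 8.43 in PBS gavage arrays. The PBS gavage group was spread widely, with 2 arrays above 8, and overlapped the jak12i group. Without PBS gavage replicate 2, the lowest, the difference was -0.81 with an adjusted p of 0.0299, and without replicate 3, the highest, it was -0.41 with an adjusted p of 0.34. In PBS ip against sham, 6 of the 7 differences were positive and the largest was that of Il4ra, at 0.28 ± 0.19 (adjusted p = 1). The median of the 7 was 0.16, beside 0.0014 over all genes tested.

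The change of each agent's effect between the early week and week 13 was tested as a difference of differences. Il2rb was called for all 3 agents: its effect was more negative at week 13 by -1.19 ± 0.20 for il15rb (adjusted p = 0.000264), -1.25 ± 0.20 for jak3i (adjusted p = 0.000106) and -1.01 ± 0.19 for jak12i (adjusted p = 0.000412). Il21r was called for il15rb (-0.66 ± 0.21, adjusted p = 0.0384) and jak12i (-0.72 ± 0.20, adjusted p = 0.0108), and Il4ra for jak3i (-0.98 ± 0.29, adjusted p = 0.029). The early differences in these contrasts were positive and not called. They were 0.22 ± 0.14 and 0.035 ± 0.12 for Il21r under il15rb and jak12i, and 0.07 ± 0.20 for Il4ra under jak3i. Part of the Il21r contrast for il15rb thus comes from week 5. The Il2rb calls held whichever array was left out, with adjusted p up to 0.00236, 0.000785 and 0.00442 for the 3 agents. The Il21r call for il15rb was lost without any of il15rb replicates 1 and 2 or PBS ip replicates 3 and 4 of week 5, or il15rb replicates 1 and 3 or PBS ip replicate 3 of week 13 (adjusted p from 0.0505 to 0.146). The Il21r call for jak12i was lost without PBS gavage replicate 3 of week 13 (0.079). The Il4ra call for jak3i was lost without PBS pump replicate 1 or 3 of week 6, or jak3i replicate 1 or 2 or PBS pump replicate 1 of week 13 (0.0543 to 0.0719), and the other Il4ra probe sets gave -0.65 (adjusted p = 0.108) and -0.13 (adjusted p = 0.732). Il15ra for jak3i, at -0.40 ± 0.15 (adjusted p = 0.0867), passed without jak3i replicate 2 or PBS pump replicate 1 of week 6 (0.0403 and 0.0304). Thus 2 of the 7 genes were called lower for each agent, where 4.07% of all tested genes were called lower for il15rb, 3.02% for jak3i and 5.56% for jak12i. Il2rb lay below the table's median of 6.70 in every treated array and in every array of weeks 5 and 6. It entered the tested genes only through the PBS arrays of week 13, which are part of these contrasts, so its calls here are descriptions too. Whether this low signal limited its early effects was not tested. In PBS skin alone Il2rb averaged 7.40 at week 13 and 6.41 at week 5 under PBS ip. These PBS levels come from different weeks, whose 75th percentiles differ, and were not tested.

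The other genes of the pathway were read from a list of 23, of which 22 were measured and 15 tested. Il2, Il2ra, Il4, Il9, Il9r, Il21 and Jak3 stayed below the filter on low signal. At week 13 under il15rb 3 of 15 were called higher and 1 lower, under jak3i 1 higher and 6 lower, and under jak12i 0 higher and 1 lower. The share of all tested genes called in either direction was 25.7%, 16% and 21.9%, so the count under il15rb was near that share and the count under jak12i below it. The list's median was 0.10, -0.25 and 0.04 in these comparisons, beside 0.01, 0.03 and 0.02 over all genes. This list was also chosen with earlier results of these data known.

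Socs1, a feedback inhibitor of JAK signalling that STAT factors induce, fell under all 3 agents, with differences of -0.63 ± 0.17 under il15rb (adjusted p = 0.00477), -1.10 ± 0.17 under jak3i (adjusted p = 6.85e-06) and -0.99 ± 0.17 under jak12i (adjusted p = 4.37e-05). Cish, a STAT5 target that restrains cytokine signalling, was called under jak3i at -0.83 ± 0.23 (adjusted p = 0.011), as were Stat3 (-0.48), Socs3 (-0.99), Pim1 (-0.39) and Mcl1 (-0.31). Tslp, an epithelial cytokine that signals through the Il7r chain with Crlf2, rose by 1.02 ± 0.26 under il15rb (adjusted p = 0.00416) and 1.10 ± 0.26 under jak3i (adjusted p = 0.00342). Stat5b (0.50) and Socs2 (0.82) also rose under il15rb. At week 6, Crlf2 (-0.43) and Il13ra1 (-0.50) were the genes called of this list under jak3i, and Stat3 (-0.43), Stat6 (-0.32) and Jak1 (-0.34) under jak12i. At week 5 none of the 15 was called in il15rb against PBS ip or in PBS ip against sham.

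Markers of the cells that carry these receptors moved in the same comparisons. At week 13, 8, 7 and 5 of 8 T cell markers tested were called lower under il15rb, jak3i and jak12i, with medians of -1.17, -1.33 and -0.66. All 7 cytotoxic and NK cell markers tested were called lower under each agent (medians -2.39, -2.65 and -1.60), as were all 8 interferon gamma response genes (medians -2.16, -3.28 and -2.39). Of all tested genes, 10.6%, 6.32% and 10.3% were called lower in the same comparisons. The marker lists were also chosen with earlier results of these data known. The mean of the T cell list ran from 6.67 to 6.77 in il15rb arrays against 7.51 to 8.18 in PBS ip arrays, from 6.53 to 6.65 in jak3i arrays against 7.52 to 8.10 in PBS pump arrays, and from 6.88 to 6.996 in jak12i arrays against 7.59 to 7.83 in PBS gavage arrays. Fewer of these markers were called in the early weeks. In il15rb against PBS ip at week 5, 2 of 8 T cell and 3 of 7 cytotoxic and NK cell markers were called lower. At week 6 these counts were 1 and 1 under jak3i, and 1 and 3 under jak12i. Early interferon gamma response calls came under jak12i only, 3 of 8 lower. All tested genes called were 0.0733%, 4.1% and 9.59% in these comparisons. Il2rb, Il7r and Il21r are known to be expressed by T and NK cells, and how far the lists account for the receptor differences was not tested.

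Of 8 macrophage markers 0 were called by limma at week 13 under any of the agents, and the 3 B cell markers measured stayed below the filter. At week 6 under jak3i 6 of 8 macrophage markers were called lower, where none of the 7 cytokine and receptor genes was. In that comparison 4.1% of all tested genes were called in either direction. Of 5 fibroblast genes 2 were called higher under il15rb (Dcn 0.63 and Lum 0.81), 2 under jak3i (Dcn 0.50 and Lum 1.09) and 0 under jak12i. Of 5 keratinocyte genes 2 were called lower under il15rb (Krt5 -0.33 and Krt14 -0.37), 0 under jak3i and 2 under jak12i (Krt14 -0.52 and Krt1 -0.70). Of 6 skeletal muscle genes 5 were called higher under il15rb, 1 under jak3i and 0 under jak12i. Of all tested genes at week 13, 25.7%, 16% and 21.9% were called in either direction under il15rb, jak3i and jak12i. The share called lower was 10.6%, 6.32% and 10.3%. With so few genes in each list, nothing is drawn from these counts. The part of these shifts in the receptor values was not tested.

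Skeletal muscle and hair shaft genes differed widely between arrays of a group. The skeletal muscle list ran from 13.51 to 13.84 in il15rb arrays against 7.70 to 13.15 in PBS ip arrays, and from 13.40 to 13.53 in jak3i arrays against 8.02 to 13.02 in PBS pump arrays. Without the 3 PBS arrays low in this list (PBS ip replicate 3 and PBS pump replicate 2 at week 13, and PBS gavage replicate 5 at week 6), Il21r under il15rb was at -0.33 (adjusted p = 0.184) and Il7r under jak3i at -0.68 (adjusted p = 0.16), while Il2rb remained called under each agent. All 6 hair shaft genes were called lower under jak12i at week 13, with list means of 5.69 to 6.54 in jak12i arrays against 9.27 to 11.85 in PBS gavage arrays. Of all tested genes 10.3% were called lower in that comparison. The part of the hair shaft difference in the receptor values was not tested.

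**Figure D4:**
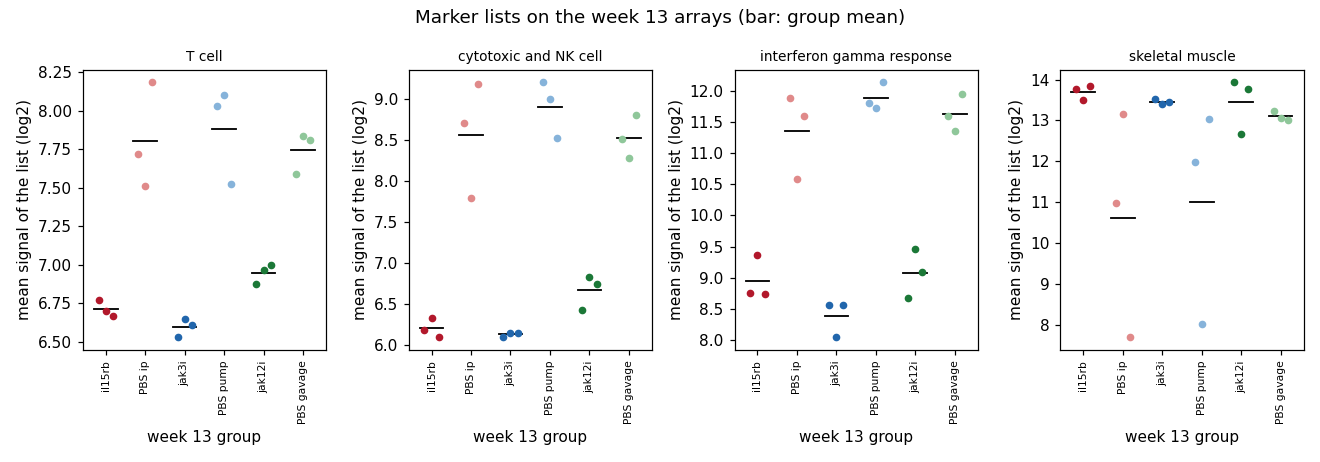
Mean log2 signal of the T cell, cytotoxic and NK cell, interferon gamma response and skeletal muscle lists in each week 13 array, with bars at group means and each treated group left of its PBS group. The T cell list lies between 6.53 and 6.996 in treated arrays and between 7.51 and 8.18 in PBS arrays.

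The genes whose pattern was most like that of a member were read from Pearson correlations over the 47 grouped arrays, with each week's mean subtracted. The arrays share weeks and treatment groups, and at week 13 they fall into treated and PBS arrays, so the values are descriptions. For Il2rb the closest were Ccl5, a chemokine of T and NK cells, at 0.94 (Spearman 0.93), Ubd, a ubiquitin-like gene induced by interferon gamma, at 0.94 (0.89), and Ikzf3, a lymphocyte transcription factor, at 0.94 (0.90). Leaving out the 2 arrays farthest from the Il2rb median gave 0.93, 0.94 and 0.93, and with each group's mean subtracted instead the values were 0.65, 0.54 and 0.68. For Il7r the closest were Prr13 (0.89), Bcl10 (0.88) and Casp1 (0.87), with 0.83, 0.80 and 0.68 after subtracting group means. Il21r lay closest to Lingo1, Cd8a and Slfn9 (0.75, 0.75 and 0.74), and Il4ra to Ripk3, Hcls1 and Gch1 (0.80, 0.79 and 0.79). For Il15ra they were Hcar2, Sectm1a and Arntl2, at 0.68 each, and for Il7 Sostdc1 (0.76), Lmo1 (0.75) and Txnrd3 (0.71). Il15 had no neighbour as close, with Toe1 at 0.65, Mad2l2 at 0.60 and Tmem209 at 0.59.

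Among the 7 genes themselves, Il2rb correlated at 0.68 with Il7r, 0.64 with Il4ra and 0.58 with Il21r over the same 47 arrays. After subtracting group means the values were 0.58, 0.40 and -0.02, so Il2rb and Il21r did not vary together within groups. Il15 correlated at 0.45 with Il15ra and at -0.05 with Il2rb, and at 0.53 and 0.10 within groups.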

How the data were processed

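Total RNA from skin of C3H/HeJ mice was hybridised to Affymetrix arrays. The deposited values are log2 probe set signals, and the submitters' processing notes name RMA as the tool; its version and settings are not given in the sources used here. The table holds 45101 probe sets for 48 arrays. Probe sets were named from the platform annotation when it gave 1 symbol (34958 probe sets), with 34754 of these matched to current RefSeq symbols. For each gene the probe set with the highest mean was kept. A gene was tested when it lay above the table's median in at least 3 arrays. Groups came from the titles, and 1 array whose title and treatment label conflict was left out. limma 3.58.1 (R 4.3.3) fitted 1 mean per group over 47 arrays, with Benjamini-Hochberg adjustment over all 13648 genes and a threshold of 0.05. The fitting script was tested on simulated data. The named genes are the 7 members in every comparison, the 3 genes most correlated with each, and up to 4 genes per marker list by smallest p, plus any others called in the pathway list. The members, lists and alternatives were chosen with earlier results of these data known. Alternatives were other scalings, filters, probe sets, array weights, vehicle groups, a replicate block, fits on the compared weeks alone, and leaving out arrays. No array scan date was used, and batch within a week was not tested.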

Additional observations from a re-analysis of the deposited data

Results flagged for a closer look

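Il15ra in PBS ip replicate 2 of week 5 read 8.57, apart from the other 3 PBS ip arrays, with a gap that was 0.938 of the group's whole range. Groups of 4 or more arrays were checked for each of the 7 genes, 35 checks in all, and chance flags about 1 in 20 such groups.

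The effect of an agent differed between the early week and week 13, by a test of the difference itself in limma, in 6 cases. For Il2rb the week 13 effect minus the earlier effect was -1.19 for il15rb, -1.25 for jak3i and -1.01 for jak12i. For Il21r it was -0.66 for il15rb and -0.72 for jak12i, and for Il4ra it was -0.98 for jak3i. The Il21r value for il15rb includes an early difference of 0.22 that was not called. The Il2rb signal was below the table's median in every array of weeks 5 and 6, and Il2rb entered the tested genes only through the PBS arrays of week 13.

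The array titled as PBS ip but labelled with the antibody treatment entered no comparison. Its Il15ra signal was 8.88, level with the highest PBS ip array of week 5 at 8.88, and its Il7r signal was 8.50, above the highest PBS ip or sham array at 8.38.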

How the results depend on the processing

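Counts are of the 7 genes called. Under array weights they were 1 for il15rb at week 5 (0 as reported), 6 for il15rb at week 13 (2), 4 for the jak3i change between weeks (2) and 1 for jak3i minus il15rb (0). Against PBS gavage in place of PBS ip, il15rb at week 13 gave 1 and its change between weeks gave 1. Without the 3 arrays low in muscle signal both also gave 1, and the change between weeks gave 1 when fitted on arrays of weeks 5 and 13 alone and when the array with conflicting labels was counted as il15rb. At week 6 jak3i gave 2 against PBS of all routes and 4 against PBS gavage, in place of 0. There Il7 turned to -0.49 (adjusted p = 0.00445), and Il4ra in jak12i at week 6 turned to 0.33 (adjusted p = 0.0267) with another probe set. The causes were not tested. Over all genes, quantile normalization gave 6 calls in place of 10 for il15rb at week 5 and 1 in place of 4 for PBS ip against sham.

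Leaving out each array in turn gave 0 to 0 for il15rb and for PBS ip against sham at week 5, 0 to 0 for jak3i and 0 to 1 for jak12i at week 6, and 1 to 3 for il15rb, 4 to 6 for jak3i and 2 to 4 for jak12i at week 13. The change between weeks gave 1 to 2 for il15rb, 1 to 3 for jak3i and 1 to 2 for jak12i, and the differences between agents gave 0 to 0. Il2rb stayed between -1.66 and -1.43 for il15rb, -1.76 and -1.50 for jak3i, and -1.25 and -1.01 for jak12i.

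Replicate numbers were not used to pair arrays in the main fit. With each gene's group mean subtracted, 22 same-numbered pairs correlated between -0.49 and 0.24. Pairs with different numbers were not compared, so this range cannot decide whether the numbers pair the arrays. With the replicate block the il15rb change between weeks had 1 gene called in place of 2, and Il4ra in il15rb at week 13 passed at -0.51 (adjusted p = 0.0389).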

Other observations

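The array of week 5 with conflicting labels had an Il2rb signal of 6.11, within the 5.92 to 6.18 of the il15rb arrays and below the 6.21 to 6.70 of the PBS ip arrays. Its Il15 signal was 8.69, above the 8.38 to 8.45 of the il15rb arrays and the 8.47 to 8.64 of the PBS ip arrays. Its Il21r signal was 7.15, below both the il15rb arrays (7.36 to 7.81) and the PBS ip arrays (7.19 to 7.57). Its Il4ra signal was 7.92, within the range of both groups, and its Il7 signal was 7.88, above the il15rb arrays (7.48 to 7.63) and within the PBS ip arrays (7.48 to 8.05). The T cell list mean of this array was 6.66 (il15rb 6.82 to 6.95, PBS ip 7.24 to 7.37). Its cytotoxic and NK cell mean was 5.99 (6.01 to 6.15 and 6.58 to 6.97). Its interferon gamma response mean was 7.86 (7.70 to 8.07 and 8.60 to 10.71). Its group was not decided from these values.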
